A study of Mus musculus with 11 samples.

Results

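Somatostatin (Sst) interneurons of the cortex were taken from single-nucleus RNA sequencing of 11 female mice, with 1 library per mouse, and 610 of the 112539 nuclei that passed the filters (0.542%) were Sst nuclei. A nucleus was taken when it had 300 to 8000 detected genes, at most 5% of its UMIs in mitochondrial genes, at least 3 UMIs of Gad1 and Gad2 together, at most 1 UMI of Slc17a7, at least 3 UMIs of Sst, more Sst than Pvalb, no Vip and at most 4 UMIs of Adarb2. A UMI is a molecular tag, so 1 UMI stands for 1 captured RNA molecule. Gad1 and Gad2 encode the enzymes that make GABA, Slc17a7 the glutamate transporter of excitatory neurons, and Sst, Pvalb and Vip mark the main interneuron classes. The nuclei were thus chosen by the counts of these 7 genes, so their levels here are given as descriptions, with no test.

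The mice came in 4 groups. Non-transgenic mice (ikbkb+/+, n = 4, 9.8 to 10.85 months old) and P301S mice (ikbkb+/+;P301S+, n = 3, 9.15 to 10.75 months) had intact IKKβ, the kinase encoded by Ikbkb that switches on NF-κB. Knockout P301S mice (ikbkb-/-;P301S+, n = 2, 8.39 to 9.15 months) lacked Ikbkb in microglia, and active IKKβ P301S mice (ikbkbCA;P301S+, n = 2, 9.8 to 10.85 months) expressed constitutively active IKKβ there. Both changes were made by a tamoxifen-inducible Cre recombinase under Cx3cr1, which acts in microglia and not in the interneurons described here. Controls carried the floxed Ikbkb alleles or the silent active-IKKβ allele without Cre, and all mice received tamoxifen. The tau transgene encodes human tau with the P301S mutation under the mouse prion promoter. The floxed line gave 6 mice and the active-IKKβ line 5: all knockout mice came from the first and all active IKKβ mice from the second, and non-transgenic and P301S mice came from both. Of the 3 P301S mice, 2 were of the floxed line like both knockout mice, and the ages of these groups met at 9.15 months. Each sample was the cortex of a hemibrain that was frozen, and nuclei were sorted on a DNA stain.

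Somatostatin interneurons are GABAergic neurons born in the medial ganglionic eminence, as are the Pvalb interneurons, whereas Vip interneurons come from the caudal ganglionic eminence. Many Sst cells are Martinotti cells, which send an axon to the cortical surface and inhibit the distal dendrites of pyramidal cells. A rare subtype, the Chodl type, makes nitric oxide through Nos1, carries the substance P receptor Tacr1 and projects over long distances. Somatostatin is a peptide released from dense-core vesicles, and its gene is known as a target of cAMP signalling through a cAMP response element close to the start site.

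That element stands out in the mouse Sst gene (ENSMUSG00000004366, minus strand of chromosome 16, GRCm38, the build that mm10 names). The sequences below are the 100 bases before the RefSeq start site of Sst, chr16:23890845-23890944, and of Ptpru, chr4:131838279-131838378, both on the minus strand of GRCm38.p6 and written 5′ to 3′. Capitals mark the palindrome TGACGTCA, which reads the same on both strands.
Sst: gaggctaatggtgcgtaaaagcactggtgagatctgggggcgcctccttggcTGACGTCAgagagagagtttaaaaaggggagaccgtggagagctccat
Ptpru: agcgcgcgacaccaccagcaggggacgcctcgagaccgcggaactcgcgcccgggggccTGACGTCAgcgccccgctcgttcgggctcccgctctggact
The element began 48 bases before the Sst start site. Among RefSeq promoters of 300 bases (250 before and 50 after the start), 588 of 32851 (1.79%) held it, and 179 of 5628 (3.18%) did among genes tested in both class comparisons below. Of the 106 genes that were higher in Sst nuclei than in both Pvalb and Vip nuclei, 72 were found in that table with 105 promoters, and 1 of those (0.952%) held the element: Ptpru, which encodes a receptor tyrosine phosphatase. These are matches of letters and say nothing on the use of the site.

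Sst nuclei numbered 31 to 83 per mouse and were deep, with a median of 11251.5 UMIs (3458 to 35347) and 3510 genes. Median depth per nucleus was 10030 to 12616 UMIs among non-transgenic mice, 9364 to 9796.5 among P301S mice, 12873 to 14706 in knockout mice and 10312 to 11601 in active IKKβ mice. The summed counts behind each mouse's values were 404864 to 991645 UMIs, from libraries of 72007219 to 93205362 UMIs. The median nucleus had 5 Sst UMIs (3 to 47), 154 nuclei stood at the limit of 3, and 10 held a Pvalb UMI. Intervals over so few nuclei would cover counting error only, so the spread between mice is given throughout.

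Markers outside the rule gave the label a check. The transcription factors of the medial ganglionic eminence were present: among the 154 nuclei just inside the limit (3 Sst UMIs), 57.1% had a UMI of Lhx6, 89.0% of Sox6 and 90.3% of Satb1. Just outside it, the 261 nuclei with 2 Sst UMIs had 57.1%, 90.0% and 86.6%, and the 512 nuclei with 1 Sst UMI had 43.8%, 73.0% and 69.9%. The nuclei with 2 Sst UMIs were thus close to those inside in all 3 shares, and the nuclei with 1 were lower in each. Meis2, which marks striatal and other subpallial neurons, had more than 1 UMI in 12.3% of the nuclei with 3 Sst UMIs, 15.3% of those with 2 and 29.3% of those with 1. At least 1 Sst UMI was seen in 1.54% of 10875 excitatory nuclei (median 13656 UMIs) and 2.00% of 12529 oligodendrocyte nuclei (median 2630 UMIs), and 3 or more UMIs in 0.0092% and 0.016% of them. Among the interneuron classes compared below, 3.39% of 295 Pvalb nuclei (median 13889 UMIs) and 4.35% of 322 Vip nuclei (median 8270.5 UMIs) had an Sst UMI, and 0% and 0.311% had 3 or more.

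Libraries shared few barcodes: 1556 of 110968 distinct barcodes recurred in another library, 20 of the Sst nuclei had such a barcode, and 0 barcodes belonged to Sst nuclei of 2 mice. A doublet caller marked 63 Sst nuclei (10.3%), against 8.42% of all nuclei, and these were kept. It marked 3.28 to 19.4% of Sst nuclei among non-transgenic mice, 10.8 to 15.8% among P301S mice, 0 to 4.05% in knockout mice and 15.4% in both active IKKβ mice. Meis2 had more than 1 UMI in 64 Sst nuclei (10.5%). Summed over 9 striatal projection neuron markers, the level in Sst nuclei was 1945 to 3979 CPM among non-transgenic mice, 1830 to 2163 among P301S mice, 1886 to 2261 in knockout mice and 2416 to 2845 in active IKKβ mice, and 0 of the 9 markers were at 0 in any group. These CPM are UMIs of the summed Sst nuclei per 1e6 UMIs, with the library totals scaled by edgeR's TMM factors.

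To describe what sets Sst interneurons apart, their counts were compared with those of Pvalb nuclei (295, at least 2 Pvalb UMIs and more Pvalb than Sst) and Vip nuclei (322, at least 3 Vip UMIs and over 4 of Adarb2) of the same mice. The test was the quasi-likelihood test of edgeR with the mouse as a block, and calls needed an adjusted p (Benjamini-Hochberg) under 0.05 and an absolute log2 fold change over 1. A sparse gene could pass the count filter through the class where it was high. Called shares of short lists of such genes thus follow in part from the filter. Against Pvalb nuclei 620 of 5781 genes were called (10.7%), of which 349 were higher in Sst nuclei (6.04%) and 271 lower (4.69%). Against Vip nuclei 520 of 5480 genes were called (9.49%), 277 higher (5.05%) and 243 lower (4.43%). Of 5312 genes tested in both, 106 were higher in Sst nuclei than in either class (2%) and 45 were lower than in either (0.847%). The median log2 fold change of all genes against Pvalb nuclei was 0.0016. Levels in this comparison are CPM without TMM factors over the 11 mice, given as lowest, median and highest.

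Peptide genes came first. Npy, the gene of neuropeptide Y, stood at 37.0, 93.4 and 128 CPM in Sst nuclei, 0, 4.48 and 13.0 in Pvalb nuclei and 4.52, 16.1 and 43.6 in Vip nuclei. It was higher in Sst nuclei in all 11 mice, with log2 fold changes of 3.88 (SE 0.24, adjusted p = 1.97e-12) and 2.06 (SE 0.22, adjusted p = 2.57e-08). Crhbp, the binding protein of corticotropin-releasing hormone, stood at 53.8, 71.8 and 102 CPM, against 15.7, 25.2 and 53.9 in Pvalb nuclei and 0, 0 and 12.2 in Vip nuclei. The list of 20 peptide ligand genes also holds this binding protein. Npy and Crhbp were the 2 members called against Pvalb nuclei of 4 that were tested. Which members were tested depended in part on the class where they were high. The machinery that makes and releases peptides was measured for 18 genes: 6 were higher in Sst than in Pvalb nuclei and 0 lower, with a list median of 0.66 (6.04% and 4.69% of all genes were called). They were Vgf (log2 fold change 2.79), a granin-like protein of dense-core vesicles, Rph3a (1.81), Pcsk2 (1.29), which cleaves propeptides, Ptprn (1.12), Rab3b (1.11) and Syt4 (1.02). Vgf stood at 92.9, 118 and 136 CPM in Sst nuclei and at 3.20, 16.9 and 38.5 in Pvalb nuclei, with no overlap. Against Vip nuclei, which are peptidergic too, Rab3b was higher (2.78) and Cadps2 (-2.04) and the propeptide cleaving enzyme Pcsk1 (-1.60) were lower, 3 of 19 tested, where 9.49% of all genes were called.

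Of 4 peptide receptor genes tested against Pvalb nuclei, 2 were higher in Sst nuclei and 1 lower (6.04% and 4.69% of all genes), and of 4 against Vip nuclei 1 was higher and 1 lower (5.05% and 4.43%). Genes this sparse could pass the filter through the class where they were high, so these counts are descriptions only. The substance P receptor Tacr1 stood at 22.2, 92.0 and 158 CPM in Sst nuclei, 0, 6.54 and 28.8 in Pvalb nuclei and 0, 0 and 14.3 in Vip nuclei, so Sst and Pvalb values overlapped at their edges. Its log2 fold change against Pvalb nuclei was 3.07 (adjusted p = 8.55e-09). The μ-opioid receptor Oprm1 was higher in Sst than in Pvalb nuclei (3.24). The δ-opioid receptor Oprd1 was lower than in Pvalb nuclei (-1.04) and higher than in Vip nuclei (4.58), and the orexin receptor Hcrtr2 was lower than in Vip nuclei (-3.18). Receptors for somatostatin itself were too low to test: Sstr1, Sstr2, Sstr3, Sstr4 and Sstr5 averaged 3.07, 2.26, 0.906, 0 and 0.106 CPM in Sst nuclei.

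Of the glutamate receptor genes, 14 of 33 tested were higher in Sst nuclei than in Pvalb nuclei and 0 lower, with a list median of 0.74, where 6.04% of all genes were higher and 4.69% lower. Elfn1, a postsynaptic protein of Sst cells that recruits metabotropic glutamate receptors to their inputs, stood at 274, 314 and 477 CPM, against 0, 4.36 and 25.2 in Pvalb nuclei (log2 fold change 5.11, SE 0.22) and 144, 208 and 277 in Vip nuclei (0.59, SE 0.12). Grin3a, the GluN3A subunit of NMDA receptors, stood at 862, 1168 and 1540 CPM, against 7.19, 38.5 and 159 in Pvalb nuclei and 66.6, 111 and 269 in Vip nuclei, where its log2 fold changes were 4.80 and 3.25. Other members called against Pvalb nuclei included the metabotropic receptors Grm4 (2.05), Grm7 (1.84) and Grm8 (1.82), the kainate receptors Grik3 (2.19) and Grik1 (1.74), Gria1 (1.05), and the receptor partners Cacng3 (2.29), Cnih3 (1.29), Elfn2 (1.12) and Cacng8 (1.08). Against Vip nuclei 10 of 35 were higher and 4 lower, where 5.05% and 4.43% of all genes were. Grin3a, Grik3 (3.16), Gria3 (1.79), Cacng3 (1.67), Gria1 (1.61), Grik1 (1.59), Cacng8 (1.19), Cnih3 (1.17) and Grin2a (1.04) were higher, and Grik4 (-2.12), Grm8 (-1.59), Cacng5 (-1.48) and Cacng4 (-1.18) were lower.

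Of 20 GABA receptor and scaffold genes tested, 3 were higher and 5 lower in Sst than in Pvalb nuclei (6.04% and 4.69% of all genes). Gabra2 was higher than in Pvalb nuclei (2.46), with Slitrk3 (1.11) and Gabrb1 (1.08), and the extrasynaptic subunit Gabrd (-2.81), Gabrg3 (-2.02) and Gabrb2 (-1.31) were among the lower ones. Gabrb2 (-1.23) and Gabrg3 (-1.17) were also lower than in Vip nuclei, where 3 of 19 were lower and 0 higher (4.43% and 5.05% of all genes). Of the genes that make, load and take up GABA, 0 of 7 tested were called in either comparison.

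Among adhesion genes, Erbb4 encodes the neuregulin receptor of interneurons. It stood at 701, 1673 and 2105 CPM in Sst nuclei, against 6692, 8652 and 10189 in Pvalb nuclei and 7135, 8387 and 10557 in Vip nuclei, and no Sst value reached those of the other classes (log2 fold changes -2.39 and -2.47). Reln, the secreted protein reelin, went the other way, at 685, 887 and 1121 CPM against 18.2, 48.1 and 120 in Pvalb nuclei and 29.7, 62.4 and 182 in Vip nuclei (4.10 and 3.27). Lrrc4c was lower than in both (-2.26 and -1.53). Il1rapl2 was lower than in Pvalb nuclei (-1.86) and higher than in Vip nuclei (2.27). In all, 3 of 31 adhesion genes were higher and 4 lower than in Pvalb nuclei, where 6.04% and 4.69% of all genes were. Against Vip nuclei 6 of 31 were higher and 4 lower, against 5.05% and 4.43% of all genes.

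Of the ion channel genes, 9 of 45 were higher in Sst nuclei than in nuclei of the fast-spiking Pvalb class and 8 were lower (list median -0.40), beside 6.04% and 4.69% of all genes. The potassium channels Kcna1 (-1.87) and Kcnc1 (-1.82) were lower in Sst nuclei, as were Kcnh7 (-1.80) and the inward rectifiers Kcnj9 (-1.42), Kcnj3 (-1.38) and Kcnj6 (-1.14). Kcnc1 stood at 118, 153 and 230 CPM in Sst nuclei and at 382, 550.0 and 674 in Pvalb nuclei. Higher in Sst nuclei were Cacna2d3 (3.36), Scn3b (3.11), the R-type and T-type calcium channels Cacna1e (3.02) and Cacna1g (3.01), Kcnd3 (2.82), Kcnt2 (2.05), Kcnmb4 (1.62), Scn3a (1.10) and Kcnd2 (1.09). Against Vip nuclei 9 of 44 were higher and 5 lower (5.05% and 4.43% of all genes), with Kcnt2 (-2.85) and Kcnq5 (-2.37) lower and Cacna2d2 (3.31) higher.

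Of the transcription factors, 17 of 22 tested were called against Vip nuclei (9.49% of all genes) and 4 of 19 against Pvalb nuclei (10.7% of all genes). Lhx6 stood at 67.9, 92.4 and 148 CPM in Sst nuclei, 47.1, 73.7 and 100.1 in Pvalb nuclei and 0, 0 and 9.54 in Vip nuclei, with log2 fold changes of 0.39 and 6.25. Sox6 (4.91) and Satb1 (3.22) were likewise higher than in Vip nuclei, with Tox (3.50), Tox2 (2.53), Tox3 (2.51), Bcl11b (2.31) and Bcl11a (2.28). Prox1, a factor of the caudal ganglionic eminence, stood at 0, 2.47 and 18.6 CPM in Sst nuclei and 251, 314 and 418 in Vip nuclei (-5.84), and Zbtb16 (-2.81), Dlx6os1 (-2.25), Dlx1 (-1.75), Nr2f2 (-1.42), Nr2f1 (-1.36), Zeb2 (-1.22) and Npas3 (-1.14) were lower as well. Against Pvalb nuclei 3 of 19 factors were higher, Tox (2.59), Npas3 (1.44) and Bcl11a (1.04), and Mef2c was lower (-1.06). Both classes come from the medial ganglionic eminence. Ppargc1a, a regulator of mitochondrial genes that is high in Pvalb cells, was the 1 gene of 12 tested on the mitochondrial list that was called against Pvalb nuclei (-1.50), where 10.7% of all genes were.

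**Figure D1:**
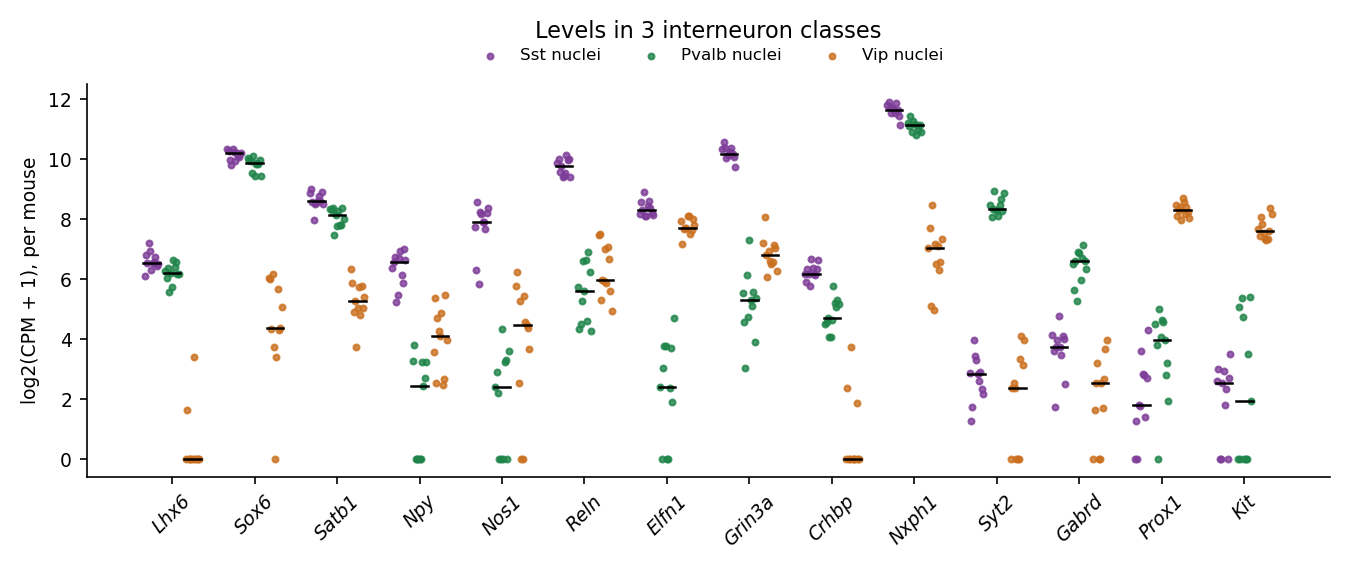
Levels of 14 genes in Sst, Pvalb and Vip nuclei, as log2(CPM + 1) of the counts summed per mouse. Each point is 1 of 11 mice and the black bar is the median of the class. Elfn1, Grin3a, Reln, Nos1 and Npy stood higher in Sst nuclei than in Pvalb nuclei in every mouse, Syt2 and Gabrd stood lower, and Prox1 and Kit stood at no more than 41.6 CPM outside Vip nuclei and at no less than 157 in them.

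By size, the genes that rose most over Pvalb nuclei were Lama4 (6.10), a laminin chain, Synpr (5.73), the vesicle protein synaptoporin, Nos1 (5.22), Elfn1, 4930509J09Rik (4.91), Trpc6 (4.81), Grin3a, Gm20754 (4.70), Gm28175 (4.67) and Shisa6 (4.45). Nos1, the neuronal nitric oxide synthase, stood at 56.8, 240.0 and 385 CPM in Sst nuclei, against 0, 4.36 and 19.2 in Pvalb nuclei and 0, 21.4 and 74.1 in Vip nuclei. Furthest below Pvalb nuclei were Mybpc1 (-6.11), Syt2 (-5.87), the calcium sensor of fast release, Gm26633 (-5.17), Pde5a (-4.89), Cemip (-4.72), Adamtsl5 (-4.69), Myo1e (-3.94), Tmem108 (-3.77), Tll1 (-3.66) and Mypn (-3.55). Syt2 stood at 1.39, 6.16 and 14.8 CPM in Sst nuclei and at 272, 327 and 490.0 in Pvalb nuclei. Over Vip nuclei the largest included Lhx6, 9630002D21Rik (5.79), Crhbp (5.19), Tmem132c (5.02), Moxd1 (4.95), Sox6, Klf5 (4.66), Adamts18 (4.65) and Nxph1 (4.59). Below Vip nuclei they were Egfr (-6.79), Dpf3 (-5.98), Prox1os (-5.98), Prox1, Kit (-5.53), Rgs12 (-5.45), Asic4 (-5.36), Sema5b (-5.08), Grpr (-5.06) and Adam12 (-4.88). Several genes in both directions, Lhx6, Crhbp, Elfn1, Nos1 and Prox1 among them, had mice at 0 in the class with less, where the fitted fold and so its rank depend on the prior count. Against Pvalb nuclei 0 of 25 tested genes for tau, its kinases and its phosphatases were called (10.7% of all genes), and against Vip nuclei 1 of 25 was, Camk2a (-1.03), beside 9.49%.

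Genes above both classes also held Calb1, the calcium buffer of many Martinotti cells (2.82 against Pvalb and 3.85 against Vip nuclei), Unc13c (2.99 and 4.06), the histone-binding gene L3mbtl4 (3.84 and 2.66) and Ptpru (3.49 and 1.78). Genes below both held Erbb4, Lrrc4c, Gabrb2, Gabrg3 and Clstn2 (-1.78 and -1.42), a synaptic calsyntenin.

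Sst interneurons fall into known subtypes, whose markers were counted in the 610 nuclei. With at least 2 UMIs taken as presence, Moxd1 was present in 177 nuclei (29.0%), Calb1 in 175 (28.7%), Npy in 151 (24.8%), Nos1 in 102 (16.7%), Tacr1 in 86, Hpse in 43, Crhr2 in 43, Pdyn in 37, Cort in 31 and Chodl in 21. Myh8 and Chrna2, which mark deep-layer Martinotti cells, had 0 UMIs in 610 nuclei, which allows a share of nuclei with a UMI of up to 0.492% by counting error alone. All 21 Chodl nuclei also had Nos1, 20 of them had Tacr1, 19 had Npy and 0 had Calb1. Among the 102 Nos1 nuclei, 60 (58.8%) had Npy and 59 (57.8%) had Tacr1, against 17.9% and 5.31% of the other nuclei, and 17 (16.7%) had Calb1 against 31.1%. The dynorphin gene Pdyn and the heparanase gene Hpse shared 13 nuclei, and 23 of the 43 Crhr2 nuclei had Calb1. These counts are descriptions, since deep nuclei hold more of every marker.

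Clustering the 610 nuclei gave 10 clusters of 41 to 93 nuclei, each led by genes that are descriptions of it. Cluster 8 (44 nuclei) was Chodl-type-like: Nos1 was present in 100% of it, Tacr1 in 93.2%, Npy in 86.4% and Chodl in 43.2%, against 10.2%, 7.95%, 19.96% and 0.353% of the rest. Calb1 and Moxd1 were at 0% in it against 30.9% and 31.3%. No nucleus of it had 2 or more UMIs of Sv2c or Kit, which belong to its 6 markers. Lhx6 was present in 15.9% of it and 33.4% of the rest, and 18.2% of its nuclei were called doublets. It held 7, 2, 3 and 0 nuclei among non-transgenic mice, 3, 4 and 4 among P301S mice, 4 and 2 in knockout mice, and 7 and 8 in active IKKβ mice. Cluster 2 (90 nuclei) was led by L3mbtl4 (72.2% against 16.3%), by AC129186.1 and by a block of long noncoding RNA genes of chromosome 8 that included C130073E24Rik (74.4% against 23.3%). These genes were not particular to it: L3mbtl4 was present in 77.3% of cluster 8 and 52.3% of cluster 7, and C130073E24Rik in 54.5% of cluster 8 and 51.2% of cluster 10. Cluster 2 made up 12.7, 11.5, 22.9 and 19.4% of Sst nuclei among non-transgenic mice, 18.4, 17.4 and 20.5% among P301S mice, 14.9 and 14.6% in knockout mice and 7.69 and 9.23% in active IKKβ mice, the lowest shares of the 11. Cluster 4 (65 nuclei) was led by Hpse (44.6% against 2.57%) and Pdyn (35.4% against 2.57%). Cluster 10 (41 nuclei) was led by Meis2 (80.5% against 5.45%), had a median of 15450 UMIs, and 73.2% of it was called doublets. The other clusters were led by Prkg2 and Gpc5 (93 nuclei), Ndst3 and Rspo2 (72), Crybg1 and Grm8 (64), Pard3b and Corin (55), Htr2c (44), and Plpp4 (42), and stay unnamed.

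**Figure D2:**
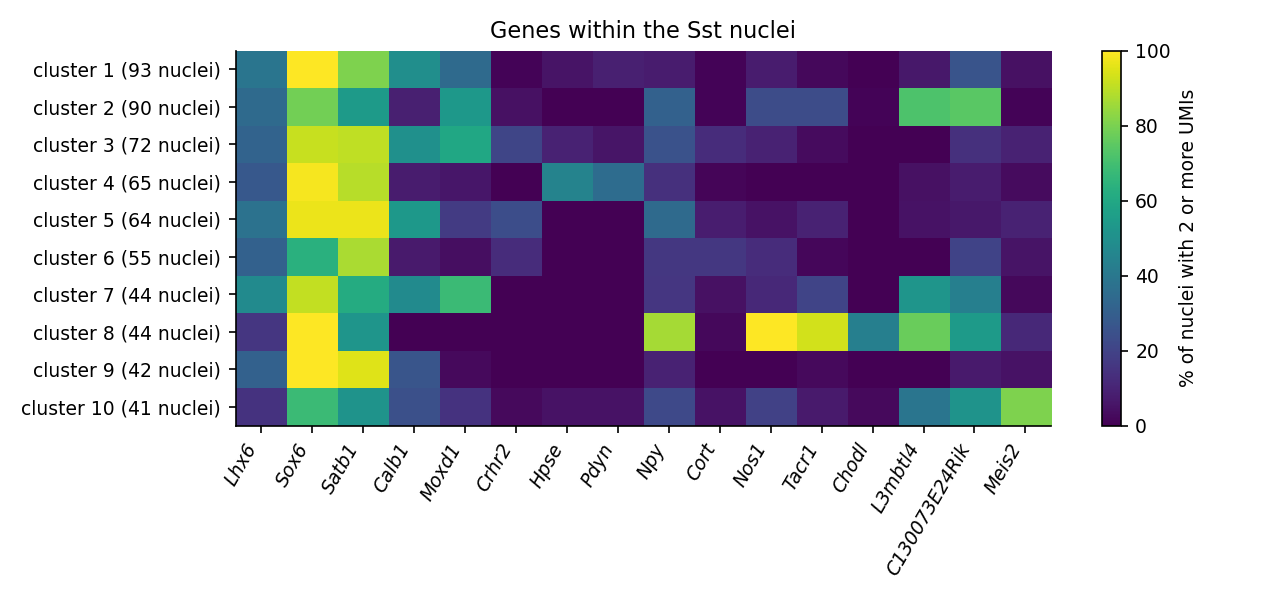
Share of nuclei with at least 2 UMIs of each of 16 genes (columns) in the 10 clusters of Sst nuclei (rows), in percent by colour. The shares with Nos1, Tacr1, Npy and Chodl were highest in cluster 8, those with Hpse and Pdyn in cluster 4 and that with Meis2 in cluster 10. L3mbtl4 was high in clusters 8 (77.3%) and 2 (72.2%), and C130073E24Rik in clusters 2 (74.4%) and 8 (54.5%).

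To ask whether genotype changed the subtypes, each nucleus was thinned to 3000 UMIs, since detection depends on depth. Of the subset markers, 5 were then present with at least 2 UMIs in at least 1% of nuclei: Nos1 (64 nuclei, 10.5%), Moxd1 (47, 7.70%), Calb1 (42, 6.89%), Npy (40, 6.56%) and Hpse (7, 1.15%). The share with Nos1 was 11.3, 1.64, 11.4 and 3.23% among non-transgenic mice, 13.2, 13.0 and 12.05% among P301S mice, 8.11 and 4.88% in knockout mice and 15.4 and 16.9% in active IKKβ mice. The 2 active IKKβ mice stood above all 3 P301S mice, and the 2 knockout mice below them. Each of those contrasts had an exact permutation p of 0.1, the smallest that 3 against 2 mice allow, and the P301S contrast had p = 0.171. At full depth the exact permutation p was 0.3 for knockout and 0.6 for active IKKβ, and with 1 or more UMIs as presence it was 0.2 and 0.5. The share with Npy was 2.82, 4.92, 5.71 and 3.23% among non-transgenic mice, 2.63, 6.52 and 13.3% among P301S mice, 1.35 and 2.44% in knockout mice and 9.23 and 13.8% in active IKKβ mice, and the groups of the P301S contrast overlapped. The share with Calb1 was 5.63, 9.84, 11.4 and 12.9%, then 10.5, 0 and 6.02%, then 4.05 and 0%, and then 10.8 and 7.69% in the same order. For Moxd1 it was 5.63, 9.84, 11.4 and 12.9%, then 7.89, 2.17 and 12.05%, then 4.05 and 7.32%, and then 10.8 and 3.08%. For Hpse, present in 7 nuclei, it was 1.41, 0, 2.86 and 3.23%, then 0% in each P301S mouse, then 0 and 2.44%, and then 1.54 and 3.08%. The active IKKβ contrast of Hpse also had an exact permutation p of 0.1. At full depth the share with Calb1 averaged 22.9% among P301S mice and 32.4% among non-transgenic mice, with an exact permutation p of 0.0286, the smallest possible (adjusted p = 0.4), where the thinned nuclei gave 0.257. None of the 20 tests passed (5 markers and 4 contrasts). Those for knockout and active IKKβ could not, as 0.1 was their smallest possible exact permutation p. The lowest Benjamini-Hochberg adjusted p of the 20 tests was 0.444 by exact permutation.

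Differences in the share of Sst nuclei lay within the spread between mice. Sst nuclei were 0.752, 0.603, 0.378 and 0.322% of all nuclei among non-transgenic mice, 0.341, 0.377 and 0.762% among P301S mice, 0.707 and 0.557% in knockout mice and 0.603 and 0.580% in active IKKβ mice. The means were 0.514 ± 0.200 (SD, n = 4), 0.493 ± 0.233 (n = 3), 0.632 ± 0.106 (n = 2) and 0.592 ± 0.0159 (n = 2), and every group overlapped with the non-transgenic one. Two-sided exact permutation p was 0.914 for P301S against non-transgenic mice (smallest possible 0.0286), 0.5 for knockout and 0.6 for active IKKβ against P301S mice (smallest 0.1), and 0.661 for the 7 tau mice against the 4 non-transgenic mice (smallest 0.00303). Adjusted over the 4 contrasts they were 0.881 to 0.914. As a share of the 16286 GABAergic nuclei, which are those with the same Gad and Slc17a7 limits, Sst nuclei were 4.76, 4.29, 3.98 and 1.85% among non-transgenic mice, 2.37, 2.53 and 5.05% among P301S mice, 5.25 and 3.31% in knockout mice and 3.81 and 4.62% in active IKKβ mice, with exact permutation p of 0.5 to 0.861. The Gad and Slc17a7 limits alone require no marker of cortical interneurons. Sst, Pvalb and Vip nuclei numbered 610, 295 and 322, so most of the 16286 nuclei were in none of these classes. Whether striatal neurons were among the rest was not tested, so these values cannot be read as shares of cortical interneurons. The rule for Sst nuclei requires Sst UMIs, so fewer Sst cells and less Sst RNA per nucleus cannot be told apart in either share.

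**Figure D3:**
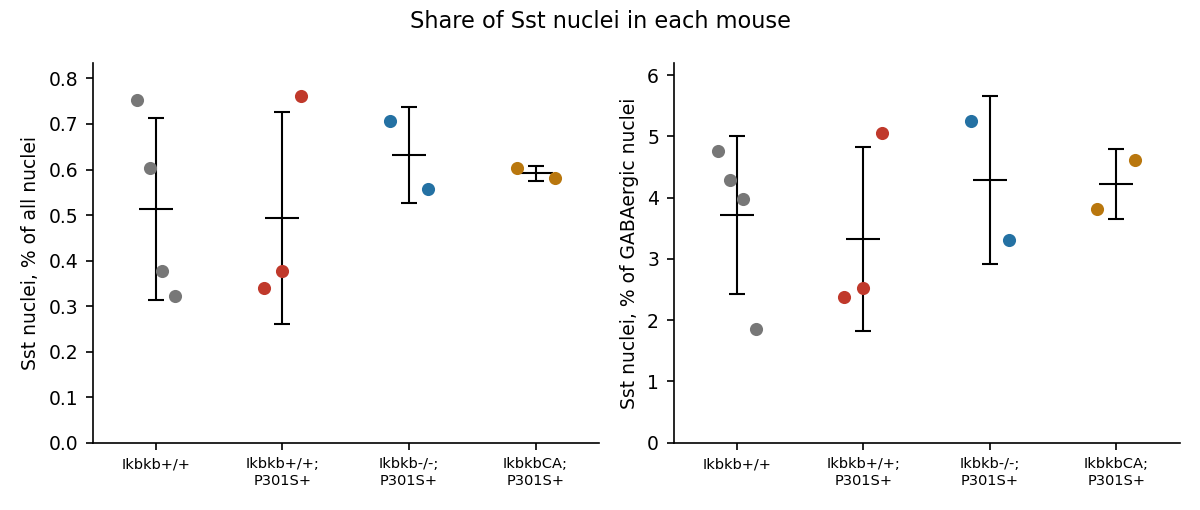
Sst nuclei per mouse as a percent of all nuclei (left) and of GABAergic nuclei (right) in the 4 genotype groups. Points are mice, and bars give the mean and SD. In both panels the ranges of non-transgenic (0.322 to 0.752% of all nuclei) and P301S mice (0.341 to 0.762%) overlap.

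Sst itself stood at 612, 488, 659 and 346 CPM among non-transgenic mice, 421, 623 and 918 among P301S mice, 475 and 381 in knockout mice and 674.5 and 459 in active IKKβ mice. From here on, CPM in Sst nuclei carry edgeR's TMM factors, and CPM in other nuclei do not. Of the 8 Sst markers outside the rule that were tested, 0 were called between genotypes, and 2 were lower for all tau at an unadjusted p under 0.05 (median log2 fold change -0.12). They were Grin3a (-0.28) and Nxph1 (-0.24), with an adjusted p of 0.989 each in edgeR. Of all 8467 genes, 406 (4.80%) had an unadjusted p under 0.05 for all tau, and 229 of those were lower. Lhx6 averaged 109, 98.9, 102 and 87.2 CPM in the 4 groups in the same order, Sox6 1170, 1185, 1183 and 1115, Satb1 425, 380, 429 and 422, Elfn1 382, 302, 375 and 287, and Npy 83.5, 90.9, 65.7 and 112. Cort, the gene of the somatostatin relative cortistatin, averaged 16.6, 18.6, 8.62 and 18.9 CPM.

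The tests across genes asked whether tau, with or without a change of microglial IKKβ, altered transcription in Sst interneurons. Counts were summed per mouse, and 8467 genes were put to the same edgeR test at an adjusted p under 0.05 and an absolute log2 fold change over 0.1. The contrasts were P301S against non-transgenic mice, knockout and active IKKβ against P301S mice, and the mean of the 3 tau groups against non-transgenic mice ("all tau"). The first and the last share the non-transgenic mice, and the middle ones share the P301S mice. In each of the 4 contrasts edgeR called 0 genes (0%). Genes at an unadjusted p under 0.05 numbered 362 for P301S (183 higher and 179 lower), 419 for knockout (186 and 233), 379 for active IKKβ (172 and 207) and 406 for all tau (177 and 229). They made up 4.28, 4.95, 4.48 and 4.80% of the genes. DESeq2 called 1 gene for P301S (Gm43049), 3 for all tau (Gm43049, Gm45323 and Gm45341), and 0 for knockout and active IKKβ. The biological coefficient of variation was 14.4%. In simulated counts with these depths the edgeR test recovered 44% of 2-fold and 83% of 4-fold changes for P301S, and 63% and 97% for all tau. Each simulated set held 100 genes changed 2-fold and 100 changed 4-fold. With so many changes the adjusted limit is easier to reach, so recovery of an isolated change could be lower. The test can thus miss many changes of 2-fold and some of 4-fold. Whether the real counts hold such changes was not tested. The knockout and active IKKβ contrasts, with 2 mice in a group, were not simulated. The median log2 fold change over all genes lay between -0.0106 and 0.00014 in the 4 contrasts.

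Gm43049 had UMIs in all 7 tau mice and in 0 of 4 non-transgenic mice. This long intergenic noncoding RNA (ENSMUSG00000105777, chr3:140692038-140760704, minus strand, GRCm38) stood at 0 CPM among non-transgenic mice, 27.9, 20.8 and 3.56 among P301S mice, 10.6 and 6.65 in knockout mice and 9.64 and 9.11 in active IKKβ mice, from 3 to 11 UMIs per mouse. Pooled over mice, its level was 8.31 times a floor of 3 counts over the non-transgenic group in tau mice, and 10.7 times in P301S mice. These ratios leave out the spread between mice, and the tau mouse with 3.56 CPM lay closer to the floor. The adjusted p of Gm43049 was 0.346 for all tau in edgeR and 0.0424 in DESeq2. It was also seen in other nuclei: excitatory nuclei had 93 to 223 UMIs in each tau mouse and 0 to 2 in each non-transgenic mouse, and oligodendrocyte nuclei 8 to 22 and 0.

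Unc5c, a netrin receptor that guides axons, is the protein-coding gene with the lowest all-tau p (chr3:141465216-141834924, plus strand), and its start lies 0.705 Mb from the end of Gm43049. It stood at 602, 626, 681 and 442 CPM among non-transgenic mice, 416, 443 and 300.2 among P301S mice, 355 and 411 in knockout mice and 418.5 and 291 in active IKKβ mice. One non-transgenic mouse (442) fell within the tau range. The all-tau log2 fold change was -0.66 (SE 0.14, adjusted p = 0.346). In excitatory nuclei Unc5c stood at 538 to 703 CPM in non-transgenic mice and 390 to 534 in tau mice, and in oligodendrocyte nuclei at 1228 to 1430 and 1085 to 1452.

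Several of the lowest all-tau p-values belonged to long noncoding RNA genes that lie within 1.55 Mb of chromosome 8, the genes that led cluster 2. Gm45341 (chr8:50117745-50517889, minus strand) stood at 84.2, 23.8, 81.4 and 136 CPM among non-transgenic mice, 25.4, 50.8 and 47.5 among P301S mice, 24.4 and 26.6 in knockout mice and 16.5 and 25.04 in active IKKβ mice. Gm45323 (chr8:49959483-50013384, minus strand) stood at 89.6, 56.5, 192 and 199, then 63.4, 87.7 and 49.8, then 64.6 and 66.5, and then 33.0 and 44.4 CPM. C130073E24Rik (chr8:50743291-50916997, minus strand) stood at 283, 153, 348 and 308, then 183, 235 and 127, then 129 and 151, and then 136 and 122 CPM. All 3 were lower on average in tau mice, by log2 fold changes of -1.45 (SE 0.31), -1.21 (SE 0.27) and -0.87 (SE 0.19), and non-transgenic replicate 2 lay among the tau mice for each. Adjusted p was 0.346 for each in edgeR. The neighbours Gm2516 (-1.60), which overlaps Gm45341 on the other strand, and 4930555F03Rik (-1.15) were lower too, without passing. In excitatory nuclei C130073E24Rik stood at 32.4 to 54.8 CPM in non-transgenic and 31.0 to 45.7 in tau mice.

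**Figure D4:**
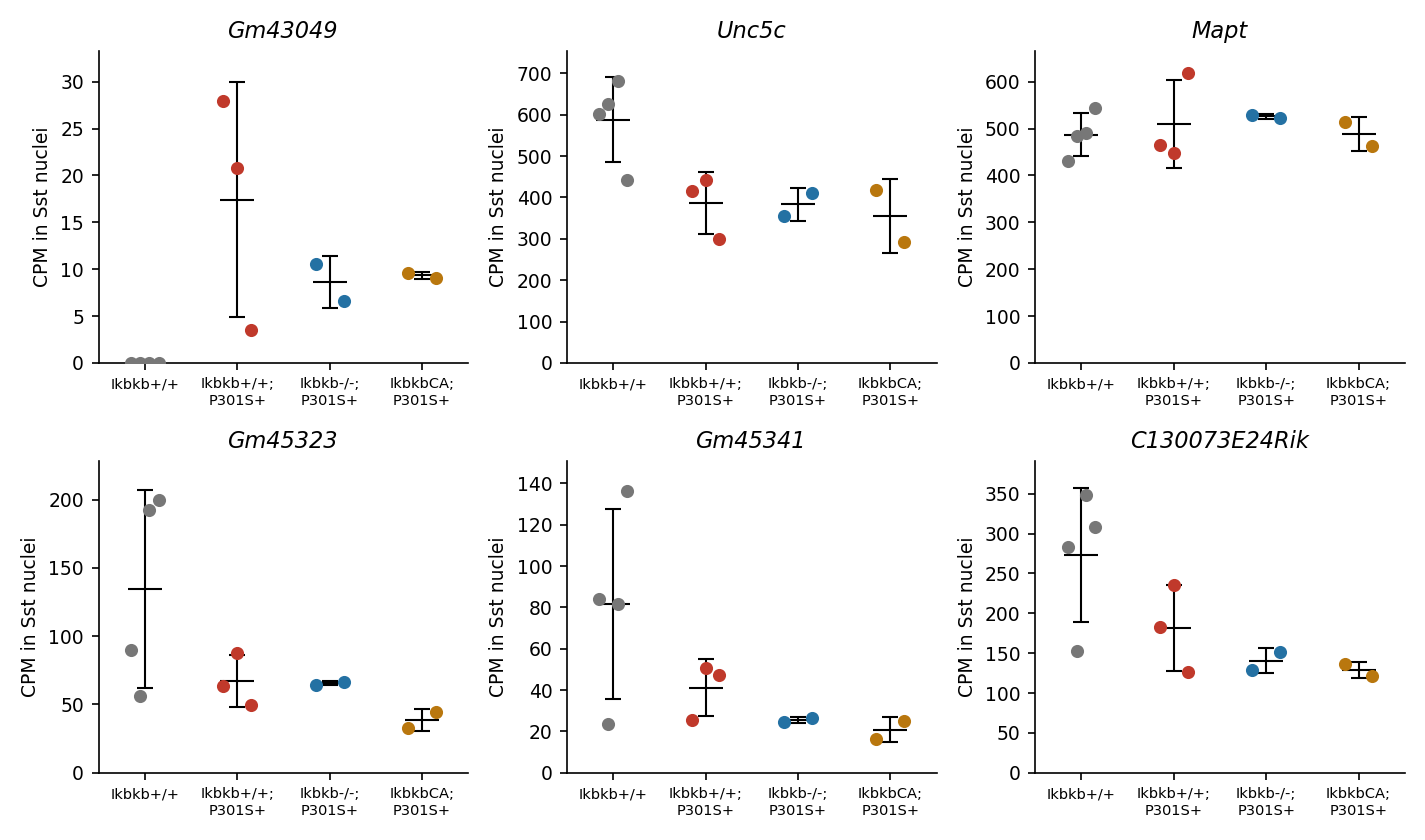
TMM-scaled CPM in Sst nuclei per mouse for Gm43049, Unc5c, Mapt and 3 chromosome 8 noncoding RNA genes in the 4 groups, with mean and SD. Gm43049 is at 0 in all 4 non-transgenic mice and above 0 in all 7 tau mice, Mapt does not separate the groups, and for the chromosome 8 genes 1 non-transgenic mouse lies among the tau mice.

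The other genes of lowest p for all tau were Tmeff2 (-0.45), Thsd7a (-0.57), the calcium-binding Necab1 (-0.82), Camk4 (-0.66) and Sema6a (0.53). Tmeff2, a transmembrane gene higher in Sst nuclei than in both other classes, stood at 1725, 1503, 1572 and 1358 CPM among non-transgenic mice, 1230, 1158 and 1179 among P301S mice, 1350 and 1145 in knockout mice and 984 and 960 in active IKKβ mice (SE 0.10, adjusted p = 0.346 in edgeR). For P301S alone they included Gm43049, Nkain1 (1.40), the calsyntenin Clstn2 (0.68), Thsd7a (-0.64), Pvt1 (-0.55), Map3k2 (-0.77), Mmp17 (1.18), Plch1 (1.82) and Rcor1 (-0.67). Nkain1 stood at 14.7, 11.9, 9.87 and 12.6 CPM in non-transgenic mice and 35.5, 20.8 and 40.3 among P301S mice (SE 0.32, adjusted p = 0.999 in edgeR). These genes were picked by smallest p, so gaps between the groups follow in part from that choice. The share of all genes with such gaps was not counted.

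In knockout mice against P301S mice the lowest p-values included those of Cdh6 (-2.81), Cmss1 (0.83), Rars2 (-0.87), Gm42418 (0.79), Xist (-0.66), Ctnna3 (-0.65), Gm26673 (-2.30), St18 (-2.34) and Gm16168 (-1.52), and none passed. Gm16168 turned to 0.81 with called doublets left out. Cdh6, a cadherin, stood at 17.8, 55.4 and 17.8 CPM in P301S mice and 3.18 and 4.99 in knockout mice. St18 is a transcription factor gene of oligodendrocytes. It stood at 9.36, 38.7, 7.40 and 83.3 CPM among non-transgenic mice, 83.7, 25.4 and 75.9 among P301S mice, 11.7 and 13.3 in knockout mice and 93.6 and 86.5 in active IKKβ mice. The 7 oligodendrocyte markers summed to 85.6 to 346 CPM among non-transgenic mice, 129 to 345 among P301S mice, 119 to 131 in knockout mice and 199 to 332 in active IKKβ mice, and 0 of them were at 0 in any group. The doublet share was 0 to 4.05% in knockout and 10.8 to 15.8% in P301S mice, and with called doublets left out St18 no longer passed the count filter. Reln, which marks Sst cells against both other classes, stood at 713, 729 and 715.5 CPM in P301S mice and 1178 and 1030 in knockout mice (0.62, SE 0.18, adjusted p = 0.926 in edgeR), and non-transgenic mice at 988, 1109, 809 and 906.

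In active IKKβ mice the gene of lowest p was Edaradd, the adaptor of the ectodysplasin receptor (chr13:12472632-12520438, minus strand). It stood at 33.0, 27.7 and 54.6 CPM in P301S mice and 8.26 and 7.97 in active IKKβ mice, while non-transgenic mice stood at 18.7, 25.3, 39.5 and 27.8 and knockout mice at 25.4 and 31.6. Its log2 fold change was -2.31 (SE 0.42, adjusted p = 0.186 in edgeR), and -2.67 with the breeding line in the model (adjusted p = 0.00743 in edgeR), where it was the 1 gene called. The other genes of lowest p were AC129186.1 (-1.72), a leading gene of cluster 2, Trpc7 (-2.80), Rnf144a (-1.30), Gucy1b1 (-1.15), Sh3rf3 (0.61), Kcnn2 (-0.81), Plch1 (-2.16), Prr16 (-0.96) and Gm16867. Gm16867 (chr14:69363504-69503362, minus strand) stood at 20.3, 9.23 and 20.2 CPM in P301S mice and at 0 in both active IKKβ mice. Pooled over the P301S mice, its level was 9.16 times a floor of 3 counts over the active IKKβ group. The P301S mouse with 9.23 CPM lay closer to that floor. Gm16867 was also at 0 in both non-transgenic mice from the active-IKKβ line and stood at 10.7 and 11.9 CPM in those of the floxed line, while the P301S mouse of the active-IKKβ line had 17 UMIs. Plch1, a phospholipase C gene, stood at 1.34, 8.93, 9.87 and 7.57 CPM among non-transgenic mice, 25.4, 25.4 and 20.2 among P301S mice, 12.7 and 26.6 in knockout mice and 6.88 and 3.41 in active IKKβ mice.

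Genes tied to the design were read next. Mouse Mapt, the endogenous tau gene (chr11:104231390-104332090, plus strand), averaged 487 ± 46.0 CPM among non-transgenic mice (SD, n = 4), 510 ± 94.0 among P301S mice (n = 3), 526 ± 5.14 in knockout mice (n = 2) and 488 ± 35.5 in active IKKβ mice (n = 2), with an all-tau log2 fold change of 0.07 (SE 0.12). In excitatory nuclei Mapt stood at 462 to 585 CPM in non-transgenic mice (mean 510) and 491 to 630 in tau mice (mean 577). In oligodendrocyte nuclei it stood at 1411 to 1839 (mean 1579) and 1471 to 1875 (mean 1710). The mouse reference gives no separate count for the human transgene, and whether its reads entered the Mapt counts was not tested. Ikbkb, which the Cre does not target in neurons, averaged 53.0, 44.8, 46.1 and 38.6 CPM (-0.29 for all tau, SE 0.18, not called). Prnp, the gene of the promoter that drives the transgene, had 2 UMIs in all Sst nuclei together and gave no reading of it.

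Described by role, gene lists without the genes of the rule had 0 members called in any of the 4 contrasts. Over all 8467 genes the all-tau median log2 fold change was -0.0106, and 4.80% had an unadjusted p under 0.05 (177 up and 229 down). For all tau the median log2 fold change was -0.15 over 35 glutamate receptor genes, of which 1 was higher and 7 were lower at an unadjusted p under 0.05. It was -0.11 over 36 adhesion genes (0 and 6), -0.16 over 7 peptide ligands (0 and 1), 0.07 over 19 genes of peptide processing (2 and 0), -0.05 over 50 channels (1 and 2) and -0.06 over 22 GABA receptor genes (0 and 1). The 29 genes for tau, its kinases and phosphatases had a median of 0.03 (0 and 0), 16 chaperones -0.02 (0 and 1), 7 IKK and NF-κB genes 0.02 (1 and 0) and 6 activity-induced genes -0.17 (0 and 1). In the knockout contrast the peptide ligands had a median of -0.14 (0 and 1 of 7) and peptide receptors 0.33 (0 and 0 of 7), against -0.0021 over all genes, of which 4.95% passed the unadjusted limit. In the active IKKβ contrast adhesion genes had -0.17 (0 and 5 of 36) and ligands -0.21 (0 and 2 of 7), against -0.0078 and 4.48%.

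**Figure D5:**
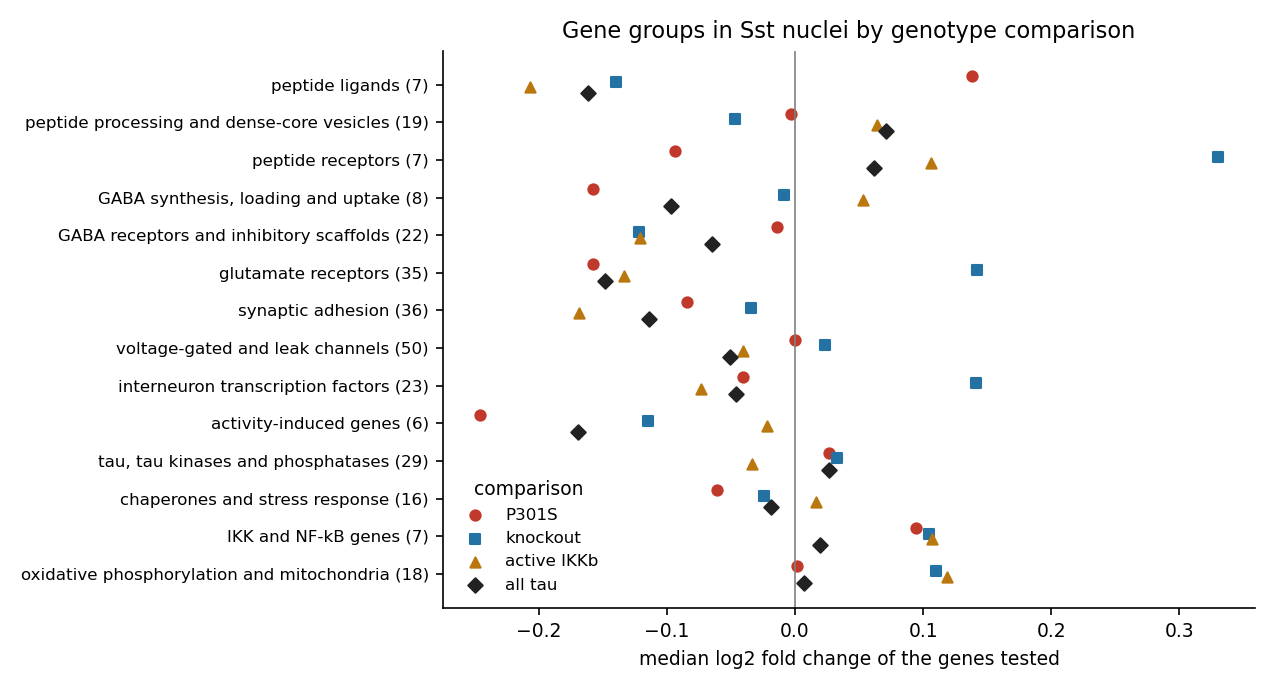
Median log2 fold change in Sst nuclei of 14 gene groups (rows) in the 4 contrasts. No member of any group was called by edgeR, and glutamate receptor genes (-0.15 for all tau) and synaptic adhesion genes (-0.11) lie below 0 in the P301S and all-tau contrasts.

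Markers of other cells moved with some of these values. Astrocyte markers summed to 72.2 to 540.3 CPM among non-transgenic mice, of which replicate 3 held the highest, 58.1 to 134 among P301S mice, 63.2 to 78.4 in knockout mice and 42.7 to 84.2 in active IKKβ mice, and the 2 that were tested (Slc1a2 and Slc1a3) had an all-tau median of -1.56, or -0.31 without non-transgenic replicate 3. Of the oligodendrocyte markers, whose sums overlapped between the groups, the 6 tested had an all-tau median of 0.65 (0.25 to 0.94) and 0 were called. The median was 0.029 without non-transgenic replicate 1 (5 markers tested), 0.39 without replicate 3 and 1.20 without replicate 4 of that group, 0.19 without P301S replicate 3 (4 markers tested), 0.39 without active IKKβ replicate 1, and 0.47 to 0.79 without any other mouse. The markers that passed the count filter thus changed with the mouse left out, and 4 to 6 were tested. Microglia markers summed to 29.4 to 85.8 CPM in non-transgenic mice and to 32.3 to 66.0 in tau mice. Excitatory markers summed to 351 to 375 CPM in non-transgenic mice and 289 to 533 in tau mice. Their part in the results was not tested.

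To ask whether Sst and Pvalb interneurons responded differently to tau, the difference of their effects was tested on 7722 genes with the mouse as a block. For P301S 0 genes were called (0%) and 368 had an unadjusted p under 0.05, and for all tau 0 were called (0%) and 345 did. The lowest adjusted p by edgeR was 0.236 for P301S, for Erbb4, and 0.182 for all tau, for Kirrel3. DESeq2 called 0 genes in both. Pvalb nuclei numbered 10 to 43 per mouse, and 10 to 28 in the P301S mice. In counts simulated as above, edgeR recovered 41% of 2-fold and 96% of 4-fold differences for all tau. The P301S difference was not simulated. The absence of calls thus does not show that the classes responded alike.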

How the data were processed

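Nuclei from the frozen cortex of 11 mice were profiled with the 10x 3′ v3 kit. The authors aligned the reads with Cell Ranger 3.1.0 to an mm10 reference that counts unspliced transcripts, and deposited a matrix of raw UMI counts (whole numbers, not normalised) for 31053 genes and the called barcodes of each mouse. Seurat 3.0 is named in the submitters' processing notes. The labels give all mice as female, whereas the study's methods name males for RNA sequencing. The labels were followed here. The members and gene lists were chosen with earlier results of these data known.

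Raw counts were summed per mouse over the nuclei of each class, because nuclei of a mouse are not replicates. Genes that filterByExpr kept went into edgeR 4.0.16 (quasi-likelihood, TMM, 1 term per genotype, all 11 mice) in R 4.3.3, with DESeq2 1.42.0 as an alternative. Thresholds were an adjusted p under 0.05 and an absolute log2 fold change over 0.1, or over 1 between classes, where the mouse was a block. The 7 genes of the rule stayed in every fit. They were left out of the results and counts between classes, and of the gene lists. Standard errors are the log2 fold change over the square root of F. Shares were compared over mice by two-sided exact permutation tests (scipy 1.17.1). Pvalb nuclei needed 2 Pvalb UMIs, Vip 0 and at most 4 Adarb2 UMIs. That limit was chosen after the nuclei were counted, since 3 UMIs left 103. Excitatory nuclei had at least 3 Slc17a7 and at most 1 Gad UMI, and oligodendrocyte nuclei at least 3 UMIs of Mog and Mag, no Gad and at most 1 Slc17a7 UMI.

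Within each library, a doublet score was the fraction of simulated doublets among 50 neighbours (20 components, scikit-learn 1.9.0), and the highest scores were called at 0.8% per 1000 barcodes. Sst nuclei were clustered on 2000 variable genes, 20 components and 15 neighbours by Leiden (resolution 0.5, scanpy 1.11.5), and a gene led a cluster by fold of its summed CPM plus 10. The tests were checked on simulated counts with 100 genes changed by each fold. Named between genotypes were the 10 genes of smallest p per contrast where fewer than 10 were called, any list member called, and a set of named markers, and between classes the called list members and the 10 largest folds each way with at least 50 CPM in the higher class. Genes quoted as above or below both classes, and the neighbours of the chromosome 8 genes, were picked after their values were seen. Positions are from GENCODE M21 on GRCm38, and promoters from RefSeq on GRCm38.p6, matched by symbol. Some genes that these rules name are not reported here.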

Additional observations from a re-analysis of the deposited data

Results flagged for a closer look

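Values per mouse were screened for a sample far from the others in the non-transgenic group of 4 mice. Of 68 such groups of values, 2 (2.94%) held a mouse whose gap to the next, divided by the range of the group, was over the 95% Dixon limit, where chance gives about 1 in 20. The astrocyte markers summed to 540.3 CPM in Sst nuclei of non-transgenic replicate 3, against 72.2, 75.9 and 119 in the others, a ratio of 0.901. The astrocyte glutamate transporter Slc1a2 stood at 439 CPM in that mouse and at 61.5 to 83.3 in the others. The markers of interneurons of the caudal ganglionic eminence summed to 196 CPM in non-transgenic replicate 2, against 138, 146 and 141, a ratio of 0.866.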

How the results depend on the processing

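The 4 genotype contrasts gave 0 calls under TMM and also with RLE factors, a stricter count filter, doublets left out, members with Lhx6, at most 1 Meis2 UMI (an alternative chosen after seeing the data) and age as a covariate. DESeq2 called 1 gene for P301S and 3 for all tau. Without the count filter 17 (P301S), 27 (knockout), 12 (active IKKβ) and 29 (all tau) genes were called, which adds genes with few counts. Breeding line as a covariate gave 1 for active IKKβ (Edaradd), members with at least 5 Sst UMIs 1 for all tau (C130073E24Rik) and thinning to 3000 UMIs 1 for all tau (Unc5c). The causes were not tested. Leaving out 1 mouse gave 0 to 0 calls for P301S and for active IKKβ, 0 to 3 for knockout and 0 to 4 for all tau: the 3 (Prdm16, Enpp2 and L3mbtl4) came without knockout replicate 1 and the 4 without non-transgenic replicate 2.

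Replicate numbers did not pair the mice (correlations of -0.0918 to 0.0575), and with the title number as a replicate block each contrast gave 0 calls. Class comparisons gave 260 calls against Pvalb and 283 against Vip nuclei after thinning to 3000 UMIs, where fewer counts remain, and 590 to 634 and 517 to 534 without 1 mouse. With Pvalb nuclei of at least 3 UMIs, added after seeing the data, there were 608. The difference between Sst and Pvalb effects gave 1 call for P301S (Erbb4) and 2 for all tau (Kirrel3 and Tmem108) after thinning, and 0 to 2 for each without 1 mouse. Subset shares passed in 0 tests under each alternative. Those for knockout and active IKKβ could not pass, since their smallest possible exact permutation p was 0.1 or more.

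Differences in shares, in percentage points, changed direction in several settings, and no share passed its test. For knockout and active IKKβ none could, since the smallest possible exact permutation p was 0.1 or more. Of all nuclei, P301S gave 0.0119 with at least 5 Sst UMIs and 0.0469 when nuclei were thinned before the rule, and knockout -0.0501 and active IKKβ -0.00904 when thinned, where 1 to 12 Sst nuclei per mouse were left. Of GABAergic nuclei, thinning gave 0.448 for P301S and -0.512 for knockout. Without 1 mouse the ranges of all nuclei were -0.155 to 0.0589 (P301S), 0.0626 to 0.273 (knockout), 0.0224 to 0.233 (active IKKβ) and -0.0168 to 0.127 (all tau), and of GABAergic nuclei -1.27 to 0.0697, -0.00298 to 1.93, 0.427 to 1.77 and -0.493 to 0.477.

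Small all-tau log2 fold changes, none called, changed sign. With at least 5 Sst UMIs they were 0.23 for Cort and 0.051 for Lhx6, among members with Lhx6 0.51 for Cort and 0.056 for Sox6, with age 0.17 for Cort, and after thinning 0.064 for Sox6, 0.039 for Elfn1 and 0.085 for Ikbkb. Without 1 mouse they ran from -0.41 to 0.058 for Cort, -0.13 to 0.19 for Npy, -0.35 to 0.017 for Lhx6, -0.11 to 0.061 for Sox6 and -0.24 to 0.081 for Satb1. The knockout log2 fold change of Gm16168, -1.52 over all Sst nuclei, was 0.81 with doublets left out. Of the other comparisons of single genes with their alternatives, 641 kept their direction and side of the threshold and 29 came to pass it. Groups of 2 mice and 31 to 83 Sst nuclei per mouse limit all of these values, and comparisons with Pvalb nuclei rest on 10 to 43 of those.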

Other observations

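Gm43049 had 13 UMIs over all nuclei of the 4 non-transgenic mice and 5228 over those of the 7 tau mice. In Pvalb nuclei it had 0 UMIs in non-transgenic mice and 15 in tau mice, in Vip nuclei 0 and 14, and in astrocyte nuclei 0 and 5. Unc5c, on the same chromosome, stood over all nuclei at 565 to 733 CPM (without TMM factors, as are the other levels here) in non-transgenic mice and 474 to 567 in tau mice, so the ranges met at their edges. In astrocyte nuclei it stood at 434 to 574 CPM and 316 to 489, in Pvalb nuclei at 377 to 471 and 172 to 534, and in Vip nuclei at 330.4 to 507 and 112 to 309.

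The chromosome 8 noncoding RNA genes were also counted in the other classes. C130073E24Rik stood at 146 to 259 CPM in Vip nuclei of non-transgenic mice and 129 to 312 in those of tau mice, and at 55.3 to 103 and 46.2 to 114 over all nuclei. Gm45341 stood at 12.4 to 22.2 CPM over all nuclei of non-transgenic mice and at 10.0 to 26.7 in tau mice.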
